A study of Mus musculus with 87 samples.

Results

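The 9 genes described here carry out or control the presentation of peptides on major histocompatibility complex (MHC) class I: the heavy chains H2-K1 and H2-D1, their light chain B2m, the peptide transporter subunits Tap1 and Tap2, the chaperone Tapbp, the immunoproteasome subunits Psmb8 and Psmb9, and the transactivator Nlrc5. They were chosen by name, and all 9 of the 9 were found among the 26171 gene symbols of each of 13 tables of comparisons. In neuronal precursors that lacked Suz12, 8 of the 9 were called higher than in wild type, and with either Suz12 isoform restored all 9 were called lower than in the knock-out. In embryonic stem cells the same knock-out gave smaller differences, which passed the test for 4 genes.

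Class I molecules show fragments of a cell's own proteins at its surface, where cytotoxic T cells can read them. The proteasome cuts the fragments, with Psmb8 and Psmb9 replacing constitutive catalytic subunits in cells exposed to interferon. Tap1 and Tap2 carry them into the endoplasmic reticulum, Tapbp holds the empty heavy chain near that transporter, and B2m stabilises the loaded molecule. Embryonic stem cells are known for low class I levels, and interferon and Nlrc5 are the best known activators of the pathway. Suz12 is part of the core of PRC2, the Polycomb complex that places the silencing mark H3K27me3 on histone tails.

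All samples came from the mouse embryonic stem cell (ESC) line 129-B13, grown in serum with LIF, and RNA was sequenced in 14 groups (32 samples) among the 87 samples of the series; the other 55 are ChIP-seq. The ESC groups were wild type (WT, 3 samples), CSex4, in which exon 4 of Suz12 is constitutive (2), Deltaex4, in which it is deleted (2), KO, the full Suz12 knock-out (3), KO-L and KO-S, the knock-out with a rescue by the long or the short isoform (2 each), and KO-L3D and KO-S3D, such rescues placed in the Rosa26 locus and carrying what the labels call the 3D mutation (2 each). Neuronal precursors (NP) were made from these cells with retinoic acid on day 4 and harvest on day 8: WT (4) and 2 each of KO, KO-S, KO-L, Deltaex4 and CSex4. How many clones stand behind a group, and whether replicates were separate cultures, is not given in the sources used here, so p-values measure the spread between these samples, which may be technical. In bulk RNA, fewer cells of a type and less RNA per cell cannot be told apart.

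Fold changes, standard errors (SE) and adjusted p-values below are those of the authors' deposited tables, and a gene is called at an adjusted p under 0.05. The level in each library is given as RPM, reads per 1000000 recovered reads, from whole reads that were recovered from the tables' mean normalised counts for 25954 genes, 18397328 to 37345493 reads per library. Libraries of a group carry no number of their own and are lettered arbitrarily. The 3 ESC WT libraries serve all 7 ESC tables, 1 pair of NP WT libraries serves the CSex4, Deltaex4 and KO tables, a second pair serves only a separate WT vs KO table, and the 2 NP KO libraries enter 4 tables, so these comparisons are not independent. In 6 ESC tables, all but that of KO, genes seen by 1 read, in WT library a, had a median log2 fold change of at most 0.23 in size, against at least 1.05 for the other libraries, so those fold changes rest on WT libraries b and c.

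The labels were checked on Suz12 and on cell type markers. Suz12 reached 207 to 395 RPM in ESC WT and 62.5 to 128 in ESC KO, and 132 to 246 in NP WT and 52.3 to 53.7 in NP KO. Suz12 reads thus remained in the knock-out, at lower levels than in WT in both cell types. In the authors' deposited tables its log2 fold change was -1.82 in ESC KO (adjusted p = 8.21e-15) and -2.14 in NP KO (adjusted p = 5.63e-09). NP WT libraries held 532 to 1760 RPM summed over 8 neural precursor markers, and NP KO libraries 136 to 146, with Hes5, Fabp7 and Neurog2 under 1. Of these 8 markers, 7 were lower in NP KO in the authors' deposited table, where 31.0% of all genes had an unadjusted p under 0.05 in either direction. The knock-out libraries thus carried few reads of the markers of their labelled cell type.

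Of the 9 genes, 7 lie on mouse chromosome 17, in or near the MHC. On the RefSeq annotation of GRCm38.p6, Psmb9 (chr17:34182030-34187330), Tap1 (chr17:34187556-34197225), Psmb8 (chr17:34198195-34201454) and Tap2 (chr17:34204479-34216321) follow each other without another member between them. H2-K1 (chr17:33996012-34000619), Tapbp (chr17:33919478-33929290) and H2-D1 (chr17:35263094-35267497) lie farther off. B2m is on chromosome 2 (chr2:122147687-122153082) and Nlrc5 on chromosome 8 (chr8:94434335-94527272). Neighbouring members share their chromatin, so they are not independent readings. H2-K1 and H2-D1 are close relatives of each other and of other class I genes in the same region, and reads that fit several of them may have been split, so their values are uncertain in that respect.

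The sequences before the starts of 3 members are shown because the members moved together in NP. RefSeq promoter windows of GRCm38.p6 (250 bases before the start to 50 after) were matched by symbol for 7 of the 9 members, not for Tap2 or Nlrc5. The first is on the plus strand at chr17:35262844-35263093, and its capitals mark runs of 12 or more bases that also occur in the 250 bases before a RefSeq start of H2-K1. The second, on the plus strand at chr2:122147437-122147686, and the third, on the plus strand at chr17:34187331-34187555, carry in capitals the matches to 4 motifs described next; the third is the whole stretch between the starts of Tap1 and Psmb9.
H2-D1: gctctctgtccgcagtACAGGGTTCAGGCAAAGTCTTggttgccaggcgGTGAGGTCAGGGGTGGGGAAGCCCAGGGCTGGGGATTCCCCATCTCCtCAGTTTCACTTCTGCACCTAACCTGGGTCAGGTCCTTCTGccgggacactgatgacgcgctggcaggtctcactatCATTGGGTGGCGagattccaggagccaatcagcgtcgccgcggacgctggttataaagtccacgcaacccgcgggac
B2m: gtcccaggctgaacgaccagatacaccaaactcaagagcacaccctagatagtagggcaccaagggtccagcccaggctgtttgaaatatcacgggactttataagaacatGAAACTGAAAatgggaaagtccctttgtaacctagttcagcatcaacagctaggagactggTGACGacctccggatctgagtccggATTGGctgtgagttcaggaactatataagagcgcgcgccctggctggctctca
Tap1: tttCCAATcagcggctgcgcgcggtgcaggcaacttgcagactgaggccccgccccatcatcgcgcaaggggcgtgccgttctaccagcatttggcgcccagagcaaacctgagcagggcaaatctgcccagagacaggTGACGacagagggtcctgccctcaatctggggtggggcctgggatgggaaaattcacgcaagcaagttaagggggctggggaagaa

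The H2-K1 window lies within the span of a longer RefSeq model of that gene, so it may hold transcribed sequence. In H2-K1 and H2-D1 the longest shared run was 47 bases, and 166 of 190 aligned bases were identical. The starts of Tap1 and Psmb9 are 226 bases apart on opposite strands, so they share 1 stretch of upstream sequence. Motifs were searched on both strands of the 300-base windows. The interferon-stimulated response element core was found for 1 of the 7 members, B2m, and in 3.49% of all promoters. The STAT site TTCNNNGAA, which reads the same on both strands, was found for Psmb8 alone, and in 8.47% of all promoters. TGACG, the core of the CRE-like site of the class I enhancer, was found for 5 members (H2-K1, H2-D1, B2m, Tap1 and Psmb9) and in 21.0% of promoters. CCAAT, the Y box, was found for those 5 and Tapbp, and in 37.9%. For each of TGACG and CCAAT, the matches of Tap1 and Psmb9 are the same bases, so 1 site is counted for both genes. Each is a match of letters and no measured site. A site that departs from these letters was not counted, so a member without a match may still hold a variant.

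The submitters also deposited 2 lists of ChIP regions for Suz12 and H3K27me3 that their differential analysis returned for WT; the group compared with WT and the direction are not given in the sources used here. A Suz12 region lay within 2500 bases of the start or end of 5 of the 9 genes (H2-K1, H2-D1, B2m, Tap1 and Psmb8), against 11.0% of 20992 genes. An H3K27me3 region did so for 7 of 9 (these and Tap2 and Psmb9), against 21.2%. Tap1 and Psmb8 shared 1 Suz12 region, chr17:34197037-34199126 in mm10 coordinates, which spans the facing ends of Tap1 and Psmb8. For Tap1 this is the end of the gene, away from its start. Tap1 and Psmb8 also shared 1 H3K27me3 region, chr17:34195198-34199662, which is counted for both genes. The Suz12 regions at B2m (chr2:122147482-122148569) and H2-D1 (chr17:35262680-35264258) overlapped the sequences printed above. The nearest Suz12 region was 4494 bases from Nlrc5 and 48333 bases from Tapbp, so these 2 genes had none within reach. A listed region does not say whether the mark was gained or lost. No ChIP sample is labelled NP, so the regions do not describe the chromatin of NP.

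**Figure D1:**
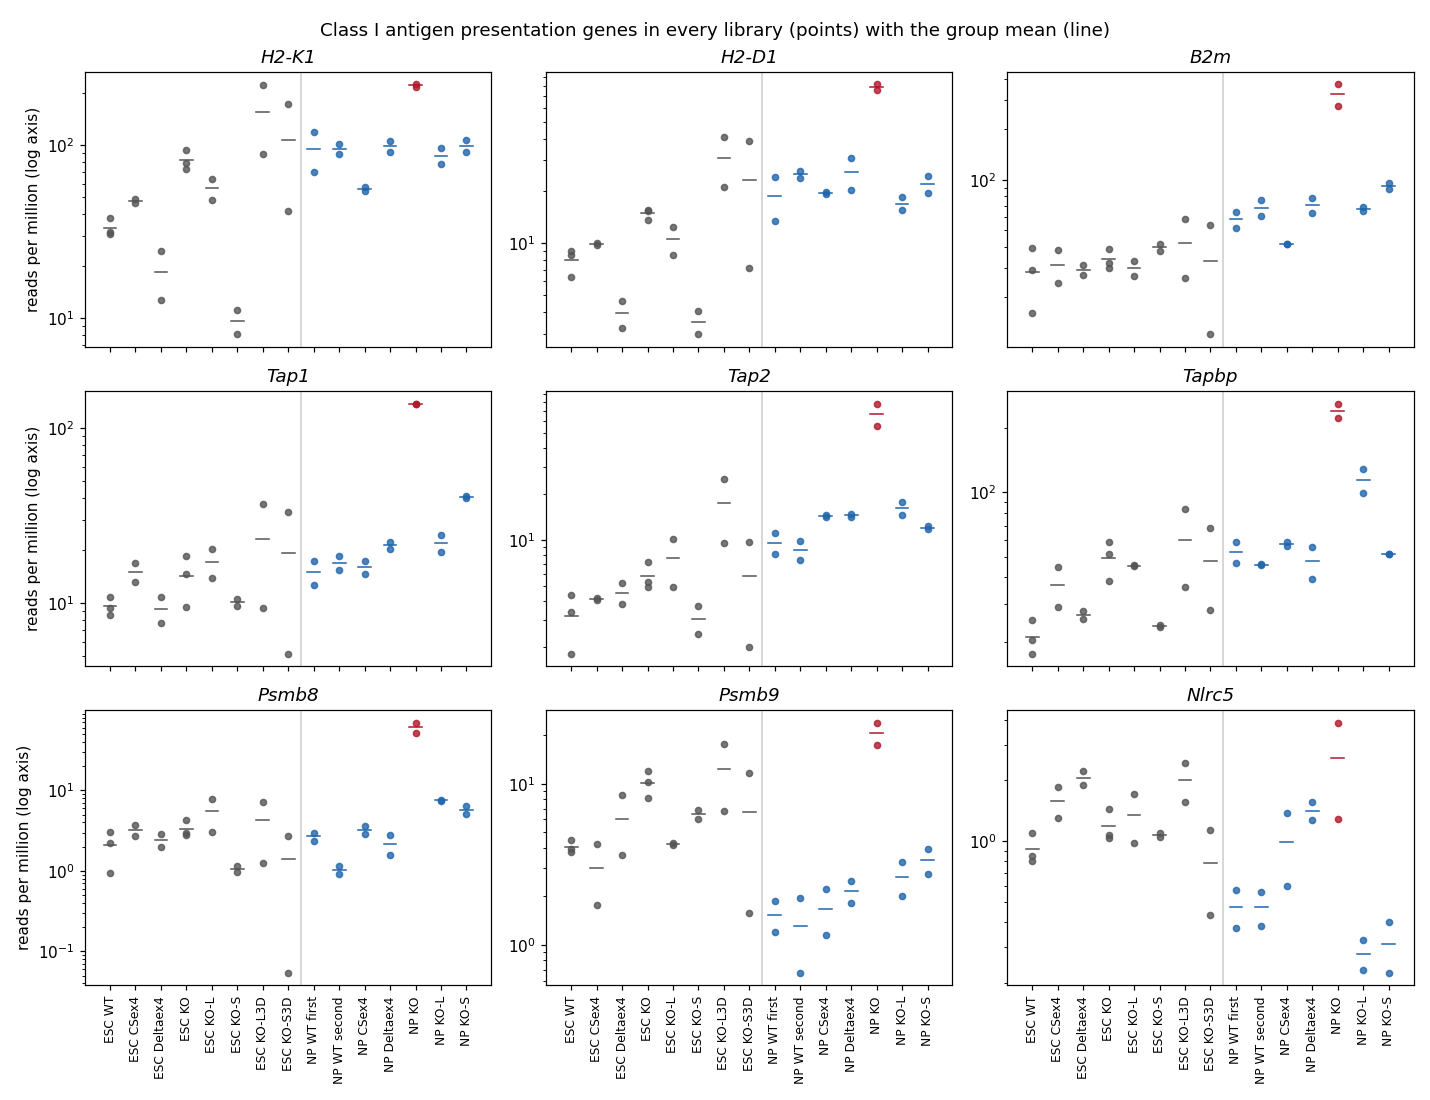
Reads per 1000000 (RPM) (log axis) of the 9 class I genes in each RNA library, grouped by genotype in ESC and NP. Each point is 1 library and each line a group mean; the 2 NP KO libraries lie above all 4 NP WT libraries for 9 of 9 genes, and the paired KO-L3D and KO-S3D points lie far apart.

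In NP the loss of Suz12 went with high class I expression. The authors' deposited table called 8 of 9 genes higher in KO than in WT and none lower, where 11.6% of all genes tested were called higher. The median log2 fold change of the 9 genes was 2.45, against -0.01 over all genes. In the recovered reads, both KO libraries lay above all 4 WT libraries for 9 of 9 genes, as they did for 31.5% of all genes. When the test was rerun with limma on recovered reads it called 7, and without KO library a or b it called 0, with fold changes still above 0 for these 8 genes.

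The immunoproteasome subunits stood out in size. Psmb8 was at 2.99, 2.36, 0.910 and 1.14 RPM in the 4 WT libraries and at 69.2 and 52.4 in KO. From a few RPM in WT, both KO libraries were far above every WT library. The log2 fold change in the authors' deposited table was 4.48 ± 0.41 (SE, 2 libraries a group; adjusted p = 4.43e-25). Psmb9 went from 0.669 to 1.95 in WT to 23.9 and 17.5 in KO, with 3.74 ± 0.52 in the authors' deposited table (adjusted p = 5.34e-11). The groups of this second subunit did not overlap either.

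The peptide transporter followed. Tap1, which with Tap2 forms the channel for peptides, was at 17.5, 12.6, 18.5 and 15.4 in WT and at 138 and 137 in KO. The 2 KO libraries were nearly equal and well clear of WT. Tap2 was at 7.36 to 11.2 in WT and at 78.3 and 56.1 in KO. The authors' deposited table gave 3.20 ± 0.35 for Tap1 (adjusted p = 2.78e-17) and 2.79 ± 0.37 for Tap2 (adjusted p = 5.65e-12). Tapbp, the chaperone that bridges transporter and heavy chain, was at 45.8 to 58.7 in WT and at 223 and 260 in KO, with 2.19 ± 0.33 in the authors' deposited table (adjusted p = 1.41e-09).

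The chains of the class I molecule itself were also higher in KO. B2m, the light chain of all class I molecules, was at 51.9 to 76.0 in WT and at 275 and 371 in KO. H2-D1 was at 13.4 to 26.1 in WT and at 82.1 and 75.8 in KO. H2-K1 was at 69.6, 120, 89.4 and 101 in WT and at 225 and 218 in KO. For all of them the KO libraries lay above WT. The authors' deposited table gave log2 fold changes of 2.45 ± 0.33 for B2m (adjusted p = 6.17e-12), 2.12 ± 0.38 for H2-D1 (adjusted p = 8.81e-07) and 1.26 ± 0.36 for H2-K1 (adjusted p = 0.00358). No test compared the size of these changes between genes. H2-K1 was the call of these 8 that limma did not make (log2 fold change 1.26, adjusted p = 0.0556), and without library a of the first WT pair its value was 0.85 (adjusted p = 0.0682).

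Nlrc5, which drives class I genes from their shared promoter module, was the member that was not called. It was at 0.373 to 0.575 RPM in WT and at 3.85 and 1.28 in KO. The KO libraries were above WT but differed from each other, and few reads stand behind them. The authors' deposited table gave 2.24 ± 1.09 (adjusted p = 0.135).

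The second NP pair of WT libraries, compared with the same KO libraries, gave 8 of 9 genes lower in WT in the authors' deposited table, where 17.3% of all genes were called lower. The values ran from -1.16 ± 0.26 for H2-K1 to -5.84 ± 0.38 for Psmb8, and Nlrc5 was at -2.23 ± 0.97 (adjusted p = 0.0629). The KO libraries are those of the first comparison, so this is a second reading of WT only. Between the 2 WT pairs, limma on all 32 libraries called 0 of the 9 genes (0 at an unadjusted p under 0.05), and 0.0377% of all genes.

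Lists of genes around the pathway were read in NP KO beside the 11.6% of all genes called higher; their members were chosen with earlier results known. The authors' deposited table called 25 of 25 interferon-stimulated genes higher (median log2 fold change 4.56, against -0.01 over all genes), among them Isg15, a ubiquitin-like modifier, at 6.44 ± 0.41 and the antiviral Rsad2 at 5.72 ± 0.40. Of 8 other genes of peptide supply and loading, 5 were called higher in the authors' deposited table, with Psmb10, the third immunoproteasome subunit, at 2.48 ± 0.39 and the peptide-trimming Erap1 at 2.12 ± 0.36. Of 12 other class I heavy chains tested, 5 were higher, with H2-M3 at 2.66 ± 0.52 and H2-Q2 at 2.33 ± 0.45 in the authors' deposited table. Of 14 genes listed as constitutive proteasome, the authors' deposited table called 0 (median 0.29). Most of them are subunits that the immunoproteasome also holds, so this count does not set the 2 forms apart. Of 7 class II genes, 3 were called higher, with H2-Eb1 at 4.32 ± 0.52 in the authors' deposited table.

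Other cell type markers moved in the same libraries. The 8 leukocyte markers summed to 7.80 to 17.8 RPM in WT and to 17.4 and 35.7 in KO. Ptprc, Tyrobp, Fcer1g and Aif1 were under 1 in KO, while Lyz2, under 1 in WT, was not in at least 1 KO library. The authors' deposited table called 1 of the 3 tested higher (median log2 fold change 1.35), where 11.6% of all genes were. Against the second WT pair 2 of 4 tested were called lower in WT, where 17.3% of all genes were. The 6 extraembryonic endoderm markers summed to 184 to 571 in WT and to 616 and 906 in KO, and 3 of 6 were called higher in the authors' deposited table. With the fall of the neural markers given above, the KO cultures differed from WT in more than class I. The part of such differences in the class I values was not tested.

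With either Suz12 isoform restored, the class I genes were lower than in NP KO. Against KO, the authors' deposited table called 9 of 9 lower in KO-L, where 13.8% of all genes were called lower, and 9 of 9 lower in KO-S, where 18.0% were. Psmb8 stood at 7.45 and 7.61 RPM in KO-L and at 6.40 and 5.04 in KO-S, against 69.2 and 52.4 in KO. Both rescues were thus far below KO, without reaching the 0.910 to 2.99 of WT. In the authors' deposited tables the log2 fold change of Psmb8 was -3.01 ± 0.27 (adjusted p = 1.69e-27) in KO-L and -3.38 ± 0.24 (adjusted p = 2.39e-41) in KO-S. B2m was at 65.5 and 69.1 in KO-L and at 87.9 and 95.5 in KO-S, and H2-K1 at 95.8 and 77.8 in KO-L and at 107 and 90.8 in KO-S. For H2-K1 the rescue libraries lay within the WT range, and for B2m KO-S lay above it. For Nlrc5, at 0.224 to 0.398 RPM in the 4 rescue libraries, the call was lost in limma without either library of KO-L or of KO-S (adjusted p from 0.117 to 0.238). The call of Tapbp in KO-L was lost without KO-L library a (adjusted p = 0.0502) or b (0.132), and that of H2-K1 in KO-S without KO-S library b (0.0533), all in limma.

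Cell type markers moved with both rescues as well. Against KO, the authors' deposited tables called 6 of 8 neural precursor markers higher and 1 lower in KO-L, and 8 of 8 higher in KO-S. The share of all genes called higher is not given here. In either direction, 33.0% of all genes had an unadjusted p under 0.05 in KO-L and 42.1% in KO-S. Of the 6 extraembryonic endoderm markers, KO-L had 5 called lower and KO-S all 6. In KO-L 5 of 7 pluripotency markers, 4 of 8 fibroblast or feeder markers and 4 of 5 endothelial markers were also called higher, and 1 pluripotency and 1 fibroblast marker lower. In KO-S 1 of 7 pluripotency and 2 of 8 fibroblast markers were higher, and 2 pluripotency, 1 fibroblast and 3 of 5 endothelial markers lower. The pluripotency markers summed to 1337 and 1928 RPM in KO-L, to 344 and 397 in KO-S, to 206 and 655 in KO and to 264 to 706 in WT. The part of these differences in the class I values was not tested.

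By the test of the difference, the NP rescue lines KO-L and KO-S differed in 2 of the 9 genes. The 2 rescues share their KO libraries, so the error of a difference between deposited effects is approximate. Tapbp stood at 129 and 99.9 RPM in KO-L and at 51.4 and 51.4 in KO-S, the latter inside the WT range of 45.8 to 58.7. From the authors' deposited tables, its effect was lower in KO-S by a log2 difference of -1.11 (95% interval -1.66 to -0.56, adjusted p = 0.00173). Tap1 went the other way, at 24.4 and 19.6 in KO-L and 39.9 and 41.1 in KO-S, a difference of 0.92 (0.36 to 1.48, adjusted p = 0.0187) from the authors' deposited tables. Over all genes 9.86% passed this test. In limma on all 32 libraries Tapbp passed (adjusted p = 0.0097) and Tap1 did not (0.138). For H2-K1 the interval of the difference ran from -0.29 to 0.74 and for B2m from -0.04 to 1.00, from the authors' deposited tables.

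No deposited table sets a rescue against WT in NP, so limma on all 32 libraries compared each with the second WT pair. In KO-L it called Psmb8 (log2 fold change 2.83, adjusted p = 0.00582) and Tapbp (1.26, adjusted p = 0.00197) higher than WT, where 41.0% of all genes were called in either direction. In KO-S it called Psmb8 (2.45, adjusted p = 0.0393), where 13.3% were. The shares over all genes show that KO-L differed from this WT pair widely, so 2 of 9 is no excess. Psmb8 was lower in the second WT pair (0.910 and 1.14) than in the first (2.99 and 2.36), which enlarges its fold change here.

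**Figure D2:**
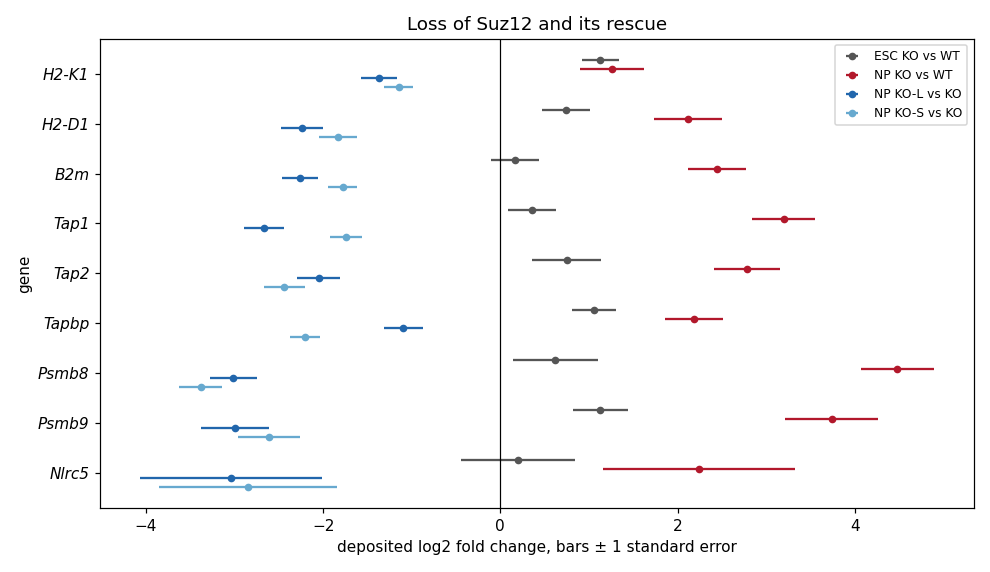
Log2 fold changes of the 9 class I genes from the authors' deposited tables, with bars of 1 standard error, for KO against WT in ESC and NP and for both rescues against KO in NP. The NP KO values lie between 1.26 and 4.48, and the 18 rescue values lie between -1.09 and -3.38.

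In ESC the same knock-out gave a smaller change. The authors' deposited table called 4 of 9 genes higher in KO, where 11.0% of all genes were called higher, and none lower. H2-K1 was at 37.8, 31.5 and 30.4 RPM in WT and at 79.0, 93.9 and 73.1 in KO, and Tapbp at 25.2, 20.3 and 17.6 in WT and at 51.3, 58.8 and 38.5 in KO. In both, the 3 KO libraries lay above the 3 WT libraries. Their log2 fold changes in the authors' deposited table were 1.13 ± 0.21 (adjusted p = 2.56e-06) and 1.05 ± 0.25 (adjusted p = 0.000416). Psmb9 was at 3.78 to 4.50 in WT and at 8.19, 10.2 and 12 in KO, with 1.13 ± 0.31 (adjusted p = 0.00278) in the authors' deposited table. H2-D1 was at 8.53, 6.33 and 9.0 in WT and at 15.5, 13.6 and 15.3 in KO, with 0.74 ± 0.27 (adjusted p = 0.0379) in the authors' deposited table. That last call was the weakest, and it was lost in limma without KO library a (adjusted p = 0.0678), KO library c (0.0508) or WT library a (0.0513). B2m, whose protein every class I molecule needs, was at 29.1, 16.0 and 39.4 in WT and at 39.0, 32 and 30.0 in KO, so its groups overlapped.

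The effect of the knock-out was larger in NP than in ESC for 7 of 9 genes by the test of the difference, which 13.7% of all genes passed in either direction. From the authors' deposited tables the differences in log2 fold change ran from 1.13 for Tapbp (95% interval 0.32 to 1.94) to 3.86 for Psmb8 (2.62 to 5.10). For H2-K1 the difference was 0.13 (-0.68 to 0.95) and for Nlrc5 2.04 (-0.44 to 4.52), and neither was called. In the limma fit H2-D1 was not called (adjusted p = 0.0658) and Nlrc5 was (0.0300).

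Interferon-stimulated genes were called higher in ESC KO at about the share of all genes, 11.0%. The authors' deposited table called 2 higher and 1 lower of the 19 tested, with Xaf1 at 1.92 ± 0.24, Oas1a at 2.16 ± 0.35 and Ddx58 at -0.56 ± 0.21. The median log2 fold change of the 19 was 1.10, against 0.01 over all genes. Of 7 class II genes 4 were called higher there, beside the same 11.0%, H2-Ab1 at 3.02 ± 0.50 and H2-Eb1 at 2.15 ± 0.45 among them. Class II proteins present peptides in specialised immune cells, and H2-Ab1 was at 6.26 to 9.01 RPM in ESC KO against 0.350 to 1.40 in WT. The 8 leukocyte markers summed to 129 to 173 RPM in ESC KO and to 83.8 to 189 in WT, most of it Laptm5 (118 to 164 and 74.5 to 169). Tyrobp and Lyz2 were at 0 in ESC KO and Ptprc, Fcer1g and Aif1 under 1. In the authors' deposited table Csf1r was higher (3.70 ± 0.98), at 0.414 to 3.76 RPM in KO and 0.0438 to 0.170 in WT, and Cd68 was lower (-0.87 ± 0.32). Their part in the class I and class II values was not tested.

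Neither exon 4 line had a called class I gene. In ESC CSex4 the authors' deposited table called 0 of 9, where 2.41% of all genes were called, with 1 at an unadjusted p under 0.05 (Tapbp, 0.89 ± 0.39). In ESC Deltaex4 it called 0 of 9, where 0% of all genes were called, and 0 at an unadjusted p under 0.05. H2-K1 was at 46.2 and 48.7 RPM in ESC CSex4 and at 12.8 and 24.3 in ESC Deltaex4, against 30.4 to 37.8 in WT. The 2 lines thus lay on opposite sides of WT. The difference between them in the authors' deposited tables, Deltaex4 minus CSex4, was -1.48 (95% interval -2.65 to -0.31, adjusted p = 0.629). That test called 0 of 9 genes (1 at an unadjusted p under 0.05, limma 0), where 0.0796% of all genes were called. In NP CSex4 the authors' deposited table called 0 of 9 (1 at an unadjusted p under 0.05, H2-K1 at -0.78 ± 0.34), where 5.53% of all genes were called. In NP Deltaex4 it called 0 of 9 (0 at an unadjusted p under 0.05), where 0.0809% were. Limma called 0 of 9 in each of these 4 comparisons. It also called 0 of all genes tested in each, so that result is not about class I. Leaving out either library of the first WT pair changed its calls in NP CSex4, with 1 WT library left.

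The exon 4 lines were compared between cell types and with each other by the same test of a difference. From the authors' deposited tables, NP minus ESC gave 0 of 9 called for CSex4 (1 at an unadjusted p under 0.05), where 5.38% of all genes were called, and 0 of 9 for Deltaex4 (1 at an unadjusted p under 0.05), where 0.00584% were. In NP, Deltaex4 minus CSex4 gave 0 of 9 (0 at an unadjusted p under 0.05), where 1.81% were. Limma called 0 in each. The intervals were wide, for H2-D1 from 0.01 to 3.09 between cell types in Deltaex4.

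The rescued ESC lines KO-L and KO-S lay on opposite sides of WT at H2-K1. Isoform and line cannot be told apart here, and KO-S3D, also a short-isoform rescue, had H2-K1 at 173 and 41.4 RPM. In KO-L the authors' deposited table called 1 gene higher, Tapbp at 1.20 ± 0.34 (adjusted p = 0.0244), where 1.46% of all genes were called higher. Tapbp was at 45.7 and 45.1 RPM there, above the 17.6 to 25.2 of WT. Limma did not call it (adjusted p = 0.107), also not with any single WT library left out. It called 0 of 14542 genes in that comparison, so this result is not about Tapbp alone. Fibroblast or feeder markers were higher in the same libraries, at a sum of 118 and 122 RPM against 16.9 to 54.3 in WT, and the authors' deposited table called 4 of the 6 tested higher, with Col1a1 at 3.29 ± 0.42. Their part in the Tapbp value was not tested. In KO-S the authors' deposited table called 1 gene lower, H2-K1 at -1.83 ± 0.35 (adjusted p = 1.36e-05), where 3.63% of all genes were called lower. H2-K1 was at 11.1 and 8.03 in KO-S, at 48.4 and 64.0 in KO-L and at 30.4 to 37.8 in WT, so none of the 3 groups overlapped. Limma called H2-K1 and also H2-D1 (-1.25, adjusted p = 0.0253), where it called 2824 of 14469 genes in either direction. Without KO-S library b it called neither (adjusted p = 0.0829 for H2-K1), and without WT library c it called 5 genes. H2-D1, its near relative, was at 4.07 and 2.97 in KO-S against 6.33 to 9.0 in WT, with -1.24 ± 0.51 (adjusted p = 0.124) in the authors' deposited table.

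The test of the difference bore on H2-K1 in each tested pair with KO-S. From the authors' deposited tables KO-S minus KO-L was -2.62 (95% interval -3.56 to -1.68), with 1 of 9 genes called against 4.21% of all genes. KO-S minus KO was -2.96 (-3.76 to -2.16) for H2-K1 and -1.97 (-3.10 to -0.85) for H2-D1, 2 of 9 against 3.77%. KO-L minus KO called 0 of 9 (0 at an unadjusted p under 0.05; limma 0), against 0.620%. These pairs share the WT libraries, so their errors are approximate. The 6 extraembryonic endoderm markers summed to 272 and 378 RPM in KO-S, to 43.1 and 47.6 in KO-L and to 15.6 to 192 in WT. Their part in the low H2-K1 of KO-S was not tested.

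**Figure D3:**
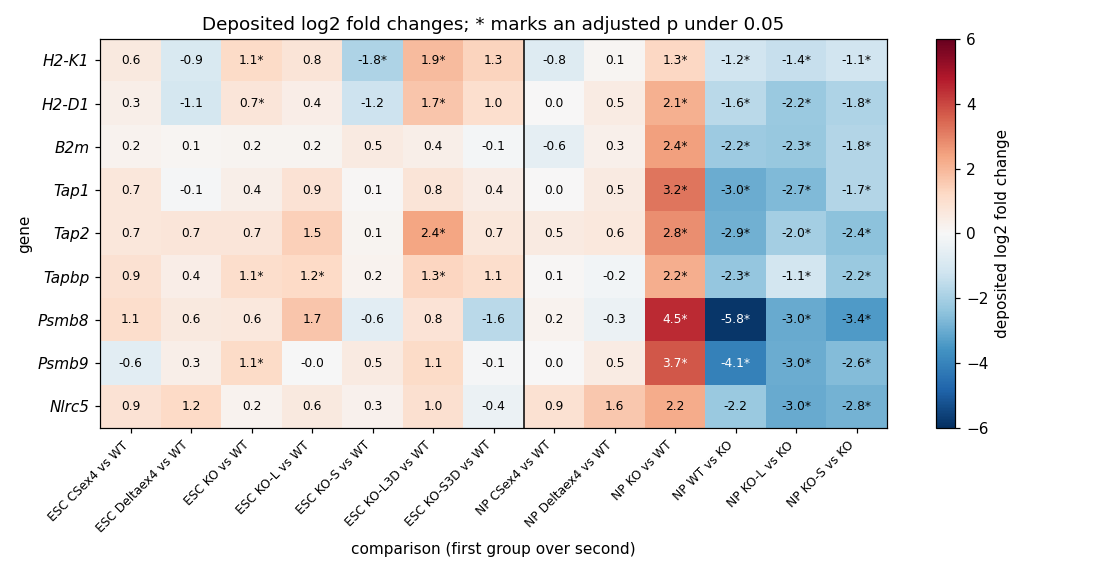
Log2 fold changes of the 9 class I genes in all 13 comparisons of the authors' deposited tables, with calls marked. The 4 columns with the NP KO libraries hold most calls, with 8 higher in NP KO, 8 lower in NP WT and 9 lower in each rescue.

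In the 3D rescues the 2 libraries of a line disagreed on class I. In KO-L3D the authors' deposited table called 4 of 9 genes higher than WT, where 8.22% of all genes were called higher: H2-K1 at 1.92 ± 0.34, H2-D1 at 1.68 ± 0.45, Tap2 at 2.38 ± 0.51 and Tapbp at 1.27 ± 0.36. H2-K1 was at 223 and 89.3 RPM in libraries a and b, and Tap2 at 25.3 and 9.58, against 1.80 to 4.38 in WT. Both libraries lay above WT for these genes, library a by much more. In limma without library a 2 of the 4 calls were left, without WT library a 1 and without WT library b 2. Without library a, Tap2 was at 1.5 (adjusted p = 0.0876) and Tapbp at 0.63 (adjusted p = 0.138).

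KO-S3D had a wider gap. The authors' deposited table called 0 of 9 genes (2 at an unadjusted p under 0.05, limma 0), where 3.23% of all genes were called. H2-K1 was at 173 and 41.4, Tap1 at 33.3 and 5.14 and Psmb9 at 11.7 and 1.57 RPM in libraries a and b. Library a lay above all WT libraries for these genes, and library b below them for Tap1 and Psmb9, as it also did for B2m, Psmb8 and Nlrc5. Without library b limma called 5 of 9. The lowest value of all was Psmb8 in library b, at 0.0541.

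Counted over the set, 9 of 9 genes were higher in library a than in library b in both lines. In KO-L3D 7 of 9 were more than 2-fold higher, with a median ratio of 2.50, where 11.7% of all genes were. In KO-S3D 9 of 9 were, with a median ratio of 4.74, where 15.3% of all genes were. In the other ESC groups at most 2 of the 9 genes differed more than 2-fold in either direction between 2 libraries. The interferon-stimulated genes were split the same way, with 13 of 19 and 16 of 20 more than 2-fold higher in library a of KO-L3D and of KO-S3D, and so were extraembryonic endoderm markers, with 4 of 6 and 6 of 6. Others higher in library a were class II genes (3 of 7 and 6 of 6) and fibroblast or feeder markers (2 of 4 and 3 of 3). Endothelial markers gave 1 of 3 and 2 of 4, neural markers 1 of 4 and 2 of 4, and other class I heavy chains 2 of 12 in both lines. Leukocyte markers gave 1 of 3 in both lines and the pluripotency markers with recovered reads 0 of 2. Of the other genes of peptide supply and loading with recovered reads, 1 of 6 was more than 2-fold higher in library a of KO-L3D and 0 of 6 in that of KO-S3D. None of 14 genes listed as constitutive proteasome was more than 2-fold higher in library a. The letters carry no replicate number, so whether the high library of one line was handled with the high library of the other cannot be told apart from these files.

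The 3D mutation was read against the rescue without it, whose locus is not given in the sources used here. From the authors' deposited tables KO-S3D minus KO-S was 3.14 for H2-K1 (95% interval 1.97 to 4.31), 1 of 9 genes against 0.752% of all genes. KO-L3D minus KO-L called 0 of 9 (2 at an unadjusted p under 0.05), against 5.38%, with 1.13 for H2-K1 (0.20 to 2.06, adjusted p = 0.155) and 1.29 for H2-D1 (0.03 to 2.56, adjusted p = 0.261). Limma on all libraries called 2 in each pair, H2-K1 and H2-D1. The share of all genes that limma called in these pairs is not given here, so 2 of 9 cannot be read as an excess. For B2m the interval of KO-L3D minus KO-L ran from -1.0 to 1.35.

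**Figure D4:**
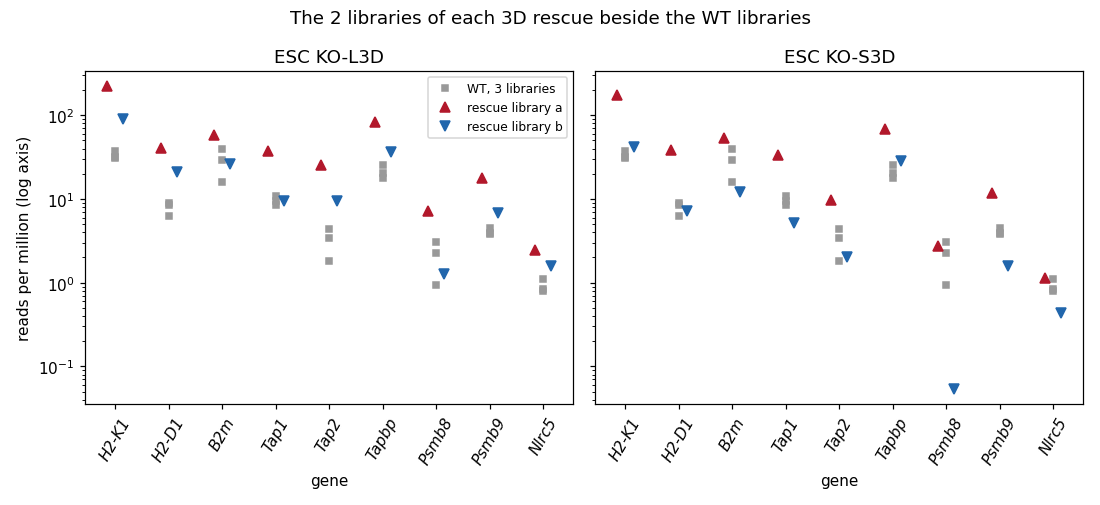
Reads per 1000000 (RPM) (log axis) of the 9 class I genes in libraries a and b of KO-L3D (left) and KO-S3D (right), beside the 3 ESC WT libraries. Triangles are single rescue libraries; library a lies above library b for 9 of 9 genes in both panels, and in KO-S3D library b falls below all WT libraries for B2m, Tap1, Psmb8, Psmb9 and Nlrc5.

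Across the 13 comparisons, the genes most like the mean of the 9 members were Zdhhc12, Pon2, Klrg2, Tmbim4 and Scamp2, each with Pearson's r of 0.98, over 13577 genes ranked. The comparisons share WT and KO libraries, so r only describes. In the authors' deposited table for NP KO their log2 fold changes were 1.15, 2.61, 4.59, 1.45 and 1.17, and in ESC KO they ran from 0.09 to 0.41. By Spearman's rho only Zdhhc12 was again among the first 5.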

How the data were processed

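RNA was measured in 32 samples; per the submitters' processing notes the tools named include TopHat, Bowtie, DESeq2 and DiffBind and the build mm10, with no versions in the sources used here. The authors deposited 13 tables of comparisons with, per the file headers, a mean normalised count per gene (a signal), a log2 fold change with its standard error, the statistic as a score, and a p-value with its adjusted p-value. The 2 deposited region lists give 1 value between 0 and 1 per region, not used other than to describe. The deposited tables are named as paired; what was paired is not given in the sources used here, so their values may come from a paired fit, while the limma alternative is unpaired. Nothing was refitted for the main values: members were read by symbol, and calls were made at an adjusted p under 0.05, higher and lower apart. The members and lists were chosen with earlier results of these data known. Rules for named genes were the 9 members, up to 4 called genes of a list with the smallest adjusted p, Suz12, and the 5 genes most like the members' mean.

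Whole reads per library were recovered from the deposited means over overlapping sets of libraries, for 25954 of 26171 genes in both cell types (217 very abundant ESC genes, among them several pluripotency markers, were left out of the levels and totals). A library's group came from its tables, never from its values. Levels (RPM) were scaled by recovered totals, which differed from the deposited size factors by up to 0.38 on the log2 scale between 2 libraries of a table. Limma 3.58.1 (R 4.3.3) with voom weights on these reads is an alternative chosen after seeing the data; it was tested on simulated data. Differences between 2 deposited effects used the root of the summed squared standard errors, a normal p and Benjamini-Hochberg adjustment over all genes. Promoters came from RefSeq, GRCm38.p6. Depth was 18397328 to 37345493 recovered reads per library, so genes at about 1 RPM rest on few reads. Stricter and looser thresholds, other gene filters and each library left out were tried. A list of regulators of class I transcription is not reported here.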

Additional observations from a re-analysis of the deposited data

Results flagged for a closer look

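The knock-out effect differed between cell types in 7 genes by a test of the difference. NP KO minus ESC KO on the log2 scale was 1.39 for H2-D1, 2.28 for B2m, 2.84 for Tap1, 2.04 for Tap2, 1.13 for Tapbp, 3.86 for Psmb8 and 2.61 for Psmb9, from the authors' deposited tables.

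In ESC, H2-K1 in the short rescue differed from the lines it was tested against: KO-S minus KO-L was -2.62, KO-S minus KO -2.96 and KO-S3D minus KO-S 3.14, and KO-S minus KO was -1.97 for H2-D1, from the authors' deposited tables. KO-S was not tested against Deltaex4, where H2-K1 was also low, at 12.8 and 24.3 RPM. In NP, KO-S minus KO-L was 0.92 for Tap1 and -1.11 for Tapbp, from the authors' deposited tables.

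Among the 4 NP WT libraries, Tapbp had 1 library, at 58.7 RPM, far from the other 3 for so small a group. The same check was run on 9 genes, and chance gives about 1 in 20.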

How the results depend on the processing

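Of 44 single-gene calls, none reversed under any alternative; 40 held at an adjusted p under 0.01, 43 with a log2 fold change of at least 1 as well, 44 with the adjustment over other gene sets and 42 in limma without a replicate block. Of 190 such calls refitted with 1 library left out, 149 held and 41 did not, where fewer samples were tested. The number of called members ran, without single libraries, from 3 to 4 in ESC KO, 0 to 0 in ESC KO-L, CSex4 and Deltaex4 and in NP Deltaex4, 0 to 5 in ESC KO-S, 1 to 6 in ESC KO-L3D, 0 to 5 in ESC KO-S3D, 0 to 7 in NP CSex4, 0 to 8 in NP KO, 8 to 9 in NP WT vs KO, 7 to 9 in NP KO-L and 7 to 9 in NP KO-S; where an arm had 1 library left, it was assumed to vary like the other group. Fits with a library left out were kept for the 9 members only, so their counts have no share over all genes beside them. At an adjusted p under 0.01, ESC KO-L had 0 called members, the difference of KO and KO-S had 1 and that of NP KO-L and KO-S had 1. In limma ESC KO-L had 0, where 0 of 14542 genes were called, and ESC KO-S 2, where 2824 of 14469 were. The limma differences of KO-L and KO-S had 3, KO-L and KO-L3D 2, KO-S and KO-S3D 2, and NP KO-L and KO-S 1. The cause of these changes in count was not tested. For the counts at 0.01 and for the limma differences the share of all genes is not given here. Those counts therefore cannot be read as an excess. Of the 5 most alike genes, 1 was shared when ranked by Spearman's rho. The Suz12 regions reached 6 members and the H3K27me3 regions 8 within 5000 bases.

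No paired analysis was possible because the recovered libraries carry no replicate number; whether the deposited values come from a paired fit is not given in the sources used here. The limma fits, with no replicate block, called 4 members in ESC KO, where 4055 of 14910 genes were called in either direction. In ESC KO-L3D they called 4 (4554 of 15056 genes) and in NP KO 7 (1371 of 16005). In NP WT vs KO they called 9 (6974 of 15999), in NP KO-L 9 (3781 of 15728) and in NP KO-S 9 (4086 of 15746). Nlrc5, with 0.224 to 3.85 RPM in NP, is the member that depth limits most.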
